A study of Mus musculus with 36 samples.

Results

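Bile acids are made from cholesterol in hepatocytes, and their synthesis is one of the main routes by which the body disposes of cholesterol. In the classic route the sterol ring is first hydroxylated at the seventh carbon, whereas in the alternative route the side chain is oxidised first and the ring afterwards. Ring reduction, side chain shortening in peroxisomes and coupling to taurine or glycine then follow, and in rodents the first step is known for a strong daily rhythm and for its sensitivity to thyroid hormone. The 10 genes described here encode enzymes and 1 lipid carrier of these steps. They were taken by gene symbol from a liver count table of 54532 genes, and all 10 were among the 17994 genes with at least 100 counts over all libraries that were tested.

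The libraries came from male mice aged 2 to 3 months, bred on the C57Bl/6NCrl background and kept on chow under 12 h of light and 12 h of dark. Control mice, labelled WT and here called THRBWT, were heterozygous (THRB+/-) for the allele B6.129S1-Thrbtm1Df/J, so every mouse of the study carried at least 1 copy of it. Knockout mice (THRBKO, THRB-/-) were homozygous. The allele impairs DNA binding of both isoforms of thyroid hormone receptor beta in every tissue, and so not in the liver alone. Livers were collected at ZT2, ZT6, ZT10, ZT14, ZT18 and ZT22 (hours after lights on), with 3 mice per genotype and time, which gave 36 libraries of polyadenylated RNA, 18 per genotype. The replicates are separate mice, lettered a, b and c within a group, and values of a group are given in that order.

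Libraries held between 29063273 and 42530551 counts, and no pair within a group differed by as little as sampling noise (chi-square per gene at least 32.7). All levels below are in CPM (counts scaled to a common library size, with library sizes adjusted by TMM). Thrb itself lay between 24.3 and 38.5 CPM in THRBWT and between 26.2 and 37.7 CPM in THRBKO, so the allele left its RNA in place and the level is no check of the genotype labels. The 5 hepatocyte markers were expressed in all libraries, with a summed level of 63221 to 87698 CPM in THRBWT and 70401 to 92741 CPM in THRBKO. The 9 lists of cholangiocyte, Kupffer, sinusoidal endothelial, stellate, lymphocyte, red cell, pancreas, pericentral and periportal markers held 42 tested genes, of which 0 were called between genotypes by edgeR, 0 by DESeq2 and 4 had an unadjusted p under 0.05 by edgeR; of the 5 pancreas genes only 1 was high enough to be tested. The 4 were Spp1 and Sox9 (cholangiocyte), Alas2 (red cell) and Cyp2f2 (periportal), all lower in THRBKO. Among all 17994 tested genes, 2169 had an unadjusted p under 0.05 by edgeR. Every cholangiocyte and red cell gene had a negative log2 fold change (medians -0.19 and -0.36). In the rest of the 9 lists medians lay between -0.056 and 0.067, apart from the 1 pancreas gene (-0.43). Of the 5 hepatocyte markers 0 were called, and Ttr and Apoa1, both lower in THRBKO, had an unadjusted p under 0.05 by edgeR. In bulk liver, fewer cells of a type and less RNA per cell cannot be told apart.

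The level of the 10 genes spanned a wide range. Per kilobase of transcript, Scp2 was highest in THRBWT with 1258 ± 125 CPM per kb (SD, n = 18), followed by Cyp27a1 with 283 ± 22.9 and Cyp8b1 with 176 ± 80.7 CPM per kb. Baat and Cyp7b1 came next, at 143 ± 18.7 and 139 ± 55.3 CPM per kb, and could not be separated by their spread. Acox2, Akr1d1 and Amacr formed a tight group between 53.5 and 57.8 CPM per kb, also not separated by their SDs. Cyp7a1, which starts the classic route, lay below them at 23.7 ± 15.0 CPM per kb. The order was the same in THRBKO.

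Hsd3b7 was last, at 0.167 ± 0.0939 CPM per kb in THRBWT, and this value is uncertain as a level. Of its 2769 exonic bases, 99.2% lie in exons of 2 other annotated genes: 62.0% are shared with Gm49388, which runs through Hsd3b7 on the same strand, and 62.4% with 9430064I24Rik on the opposite strand. Only 23 bases are its own. The libraries do not mark strand, and reads that fall in more than 1 gene are left out by the usual settings of the counting tool; the settings used are not given in the sources used here. None of the other 9 genes shares an exonic base with another gene in GENCODE M21.

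The first question was whether loss of receptor binding moved these genes over the whole day. In the fit adjusted for sampling time, 1 of the 10 genes passed an adjusted p of 0.05, Acox2, against 0.950% of all tested genes (171 of 17994). The log2 fold change (THRBKO minus THRBWT) was positive for 5 genes and negative for 5, with a median of 0.04, beside -0.0011 over all tested genes. At an unadjusted p of 0.05, 5 members passed (Cyp7a1, Cyp7b1, Akr1d1, Baat and Acox2) and 2169 of all tested genes did. The plot of fold changes sets the members side by side.

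**Figure D1:**
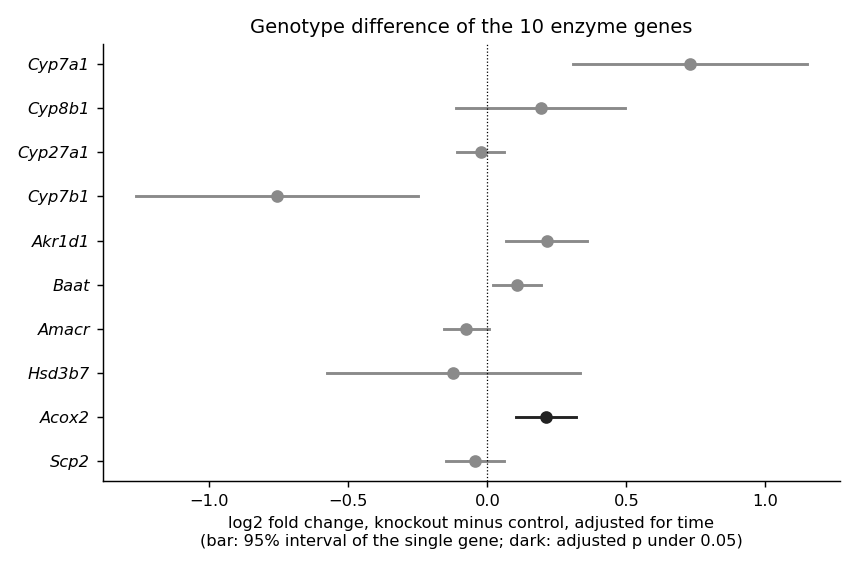
Log2 fold change of each gene, THRBKO minus THRBWT, adjusted for sampling time (x axis, log2 scale), with the 95% interval of the single gene as a bar, over 18 mice per genotype. Cyp7a1 lies furthest to the right at 0.73 and Cyp7b1 furthest to the left at -0.76, both with wide intervals, while Acox2 at 0.21 has a narrow one and is the only gene with an adjusted p under 0.05.

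Acox2, the peroxisomal oxidase that starts the shortening of the sterol side chain (ENSMUSG00000021751, GRCm38 chr14:8225511-8259353, minus strand), was higher in THRBKO. Its lowest, median and highest levels were 142, 217 and 262 CPM in the 18 THRBWT mice and 186, 248 and 293 CPM in the 18 THRBKO mice. The ranges overlapped over the whole day, but the THRBKO mean was above the THRBWT mean at 6 of 6 times. At ZT2 the THRBWT mice had 214, 242 and 221 CPM and the THRBKO mice 281, 264 and 280 CPM, with no overlap, and at ZT22 the values were 221, 262 and 261 against 293, 280 and 267 CPM, again with none. The log2 fold change was 0.21 (SE 0.0527, edgeR quasi-likelihood adjusted p = 0.0396), that is 1.16-fold (95% interval 1.07 to 1.25).

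The Acox2 call was narrow. With sampling times pooled it was lost (edgeR adjusted p = 0.321), as it was without mice a, b or c of every group (edgeR adjusted p = 0.155, 0.216 and 0.198), while the log2 fold change stayed between 0.20 and 0.23 over 10 alternatives. The call was kept under DESeq2 (adjusted p = 0.0111), with no filter on low counts and with robust dispersion (edgeR adjusted p = 0.0364 and 0.0330). DESeq2 size factors, filterByExpr and a replicate block of mice sharing time and letter kept it too (edgeR adjusted p = 0.0396, 0.0382 and 0.0016). Acox2 is also the only member on the chromosome of Thrb, 9.40 Mb away. Of 197 tested genes within 20 Mb of Thrb, 5.08% were called, beside 0.905% elsewhere, so DNA of the 129 donor strain carried along with the allele and the loss of the receptor cannot be told apart for this gene.

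Cyp7a1, the rate-limiting cholesterol hydroxylase of the classic route (ENSMUSG00000028240, chr4:6265612-6275633, minus strand), had the largest positive difference of the members and, in THRBWT, the widest daily swing. In THRBWT it was lowest in the light phase, with 28.8, 24.3 and 31.8 CPM at ZT2 and 23.8, 21.4 and 67.4 CPM at ZT6. It was highest from ZT10 on, with 116, 252 and 147 CPM at ZT10 and 148, 134 and 98.5 CPM at ZT14. The step from ZT6 to ZT22, its next higher time at 72.3, 82.4 and 113 CPM, was the only one in this order whose ranges did not overlap.

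In THRBKO the low times were less low: 101, 86.3 and 31.2 CPM at ZT2, and 72.1, 116 and 64.9 CPM at ZT6. The highest mean of any group was that of THRBKO at ZT14, with 242, 259 and 359 CPM, all above the THRBWT mice of that time. At ZT10 the order of the genotype means was the other way round, at 172 ± 71.4 CPM in THRBWT and 135 ± 77.9 CPM in THRBKO (SD, n = 3). Over all times the mean was 99.0 ± 62.8 CPM in THRBWT and 149 ± 88.5 CPM in THRBKO (SD, n = 18), with the THRBKO mean higher at 5 of 6 times. This gave a log2 fold change of 0.73 (SE 0.205, edgeR adjusted p = 0.0796), or 1.66-fold (95% interval 1.24 to 2.22).

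That p fell on the other side of the threshold under DESeq2 (adjusted p = 0.0352) and with no filter on low counts (edgeR adjusted p = 0.0421), with nearly the same log2 fold change of 0.73 in both. Under every other alternative Cyp7a1 did not pass, with edgeR adjusted p from 0.0764 (filterByExpr) to 0.726 (sampling times pooled). With robust dispersion the edgeR adjusted p was 0.122, and with a replicate block of mice sharing time and letter 0.108. Without mice a, b or c it was 0.536, 0.356 and 0.109. In these leave-outs the log2 fold change lay within 0.51 to 0.97, the range over all 10 alternatives.

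Cyp8b1, the sterol 12-alpha-hydroxylase that sets the share of cholic acid (ENSMUSG00000050445, chr9:121914356-121916305, minus strand), followed a different clock time. In THRBWT its values were 191, 264 and 89.0 CPM at ZT10 and 618, 432 and 633 CPM at ZT22, with no overlap. In THRBKO they were 182, 169 and 155 CPM at ZT10 and 682, 626 and 491 CPM at ZT22. The mean over all times was 343 ± 157 CPM in THRBWT and 397 ± 185 CPM in THRBKO (SD, n = 18), with a log2 fold change of 0.19 (SE 0.148, edgeR adjusted p = 0.663). The 95% interval of the fold ran from 0.925 to 1.41, which includes no difference.

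**Figure D2:**
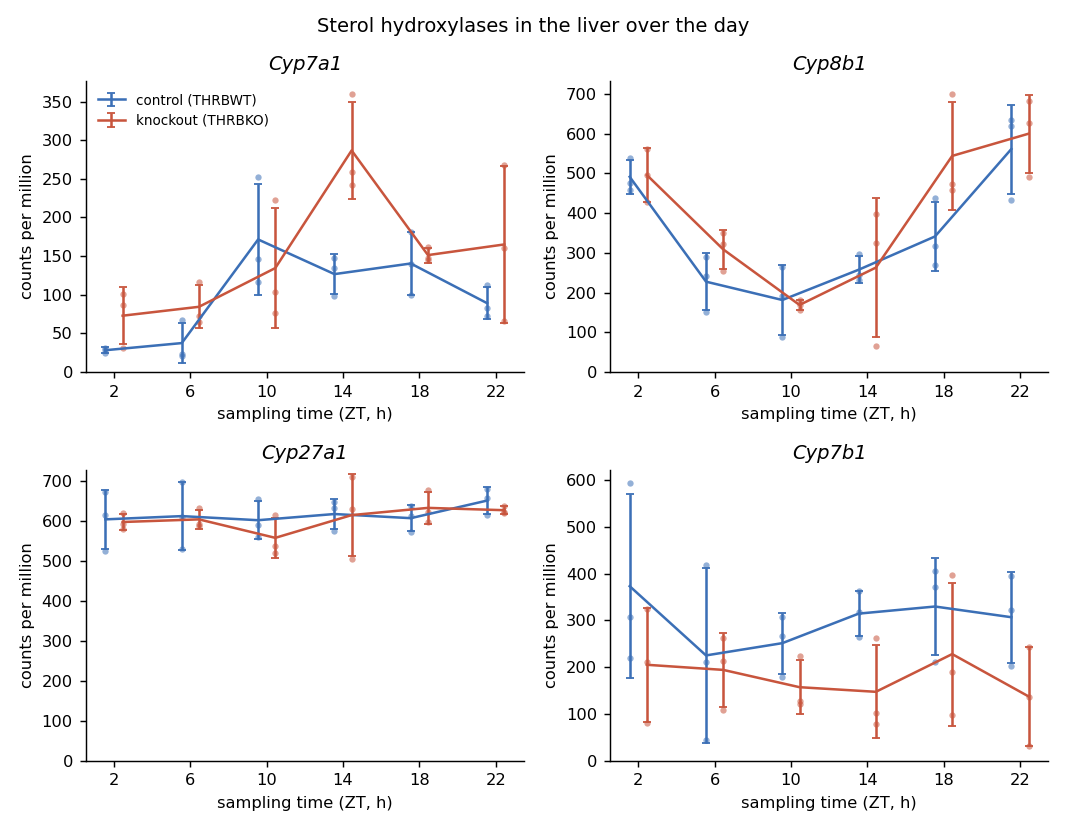
CPM (y axis) of the 4 sterol hydroxylases against sampling time (x axis, ZT in hours) in THRBWT and THRBKO livers, with each mouse as a point, lines through the means and bars for the SD (n = 3 mice). Cyp7a1 and Cyp8b1 swing over the day in both genotypes, Cyp27a1 stays near 600 CPM, and the Cyp7b1 mean of THRBKO lies below that of THRBWT at every time.

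Cyp27a1, the mitochondrial sterol 27-hydroxylase that opens the alternative route (ENSMUSG00000026170, chr1:74713574-74737892, plus strand), was the steadiest member. Its lowest, median and highest levels were 525, 614 and 697 CPM in THRBWT and 504, 616 and 708 CPM in THRBKO. The fold between the highest and lowest time mean was 1.08 in THRBWT and 1.13 in THRBKO, where that of Scp2 was also 1.13. The genotype difference was -0.02 (log2, SE 0.0411, edgeR adjusted p = 0.874), with a 95% interval of the fold from 0.928 to 1.04. Its electron donor Fdx1 had a log2 fold change of 0.0058 (SE 0.0494, edgeR adjusted p = 0.980), and Fdxr, which reduces Fdx1, one of -0.14 (SE 0.0499, edgeR adjusted p = 0.196).

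Cyp7b1, the oxysterol 7-alpha-hydroxylase that follows Cyp27a1 (ENSMUSG00000039519, chr3:18071950-18243338, minus strand), had the largest negative difference of the members and a wide spread between mice. In THRBWT the lowest, median and highest mouse had 44.5, 307 and 594 CPM, and in THRBKO 32.4, 163 and 396 CPM. The THRBKO mean was below the THRBWT mean at 6 of 6 times. At ZT14 the ranges did not overlap, with 317, 362 and 264 CPM in THRBWT against 261, 101 and 79.5 CPM in THRBKO. The log2 fold change was -0.76 (SE 0.248, edgeR adjusted p = 0.162), or 0.592-fold (95% interval 0.416 to 0.842), which did not pass the test in this fit. With a replicate block of mice sharing time and letter it passed (edgeR adjusted p = 0.0135), and under no other alternative. The labels do not say what a letter marks.

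Mice of 1 genotype and time differed widely in this gene. At ZT6 the 3 THRBWT mice had 419, 44.5 and 212 CPM, and at ZT22 the 3 THRBKO mice had 243, 32.4 and 137 CPM. Cyp7b1 is known as a gene with higher expression in male than in female mouse liver, and other genes of this kind moved with it, as described further on.

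Akr1d1, the 5-beta-reductase that gives the sterol ring its bent shape (ENSMUSG00000038641, chr6:37530173-37568815, plus strand), had higher means in THRBKO at 6 of 6 times. Over all times it was at 165 ± 26.4 CPM in THRBWT and 193 ± 41.2 CPM in THRBKO (SD, n = 18). The genotypes were furthest apart at ZT22, with 162, 181 and 158 CPM in THRBWT and 204, 293 and 213 CPM in THRBKO, and did not overlap there. The log2 fold change over all times was 0.21 (SE 0.0710, edgeR adjusted p = 0.171), 1.16-fold with a 95% interval of 1.05 to 1.28, and did not pass the test in this fit. With the replicate block it passed (edgeR adjusted p = 0.0411), and under no other alternative. Hsd3b7, the dehydrogenase that acts on the ring before Akr1d1 (ENSMUSG00000042289, chr7:127800604-127803802, plus strand), had 1 to 40 counts per library and a log2 fold change of -0.12 (SE 0.223, edgeR adjusted p = 0.884).

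Amacr, the racemase that turns the side chain into the form Acox2 accepts (ENSMUSG00000022244, chr15:10981756-10996626, plus strand), was close in both genotypes, at 140 ± 18.8 CPM in THRBWT and 133 ± 19.0 CPM in THRBKO (SD, n = 18). Its log2 fold change was -0.08 (SE 0.0396, edgeR adjusted p = 0.456). Scp2, the sterol carrier protein whose longer product is the thiolase that ends side chain shortening (ENSMUSG00000028603, chr4:108043839-108144998, minus strand), was at 4375 ± 434 CPM in THRBWT and 4241 ± 466 CPM in THRBKO, with a log2 fold change of -0.04 (SE 0.0515, edgeR adjusted p = 0.802). Reads of Scp2 may be shared with its processed copy Scp2-ps2, whose level was the most like it of all genes (Pearson r = 0.925 over 36 libraries).

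Baat couples the finished bile acid to taurine or glycine (ENSMUSG00000039653, chr4:49489422-49506557, minus strand). It was at 278 ± 36.2 CPM in THRBWT and 300 ± 39.2 CPM in THRBKO (SD, n = 18), with a higher THRBKO mean at 5 of 6 times. The log2 fold change of 0.11 (SE 0.0420, edgeR adjusted p = 0.267) did not pass the test.

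**Figure D3:**
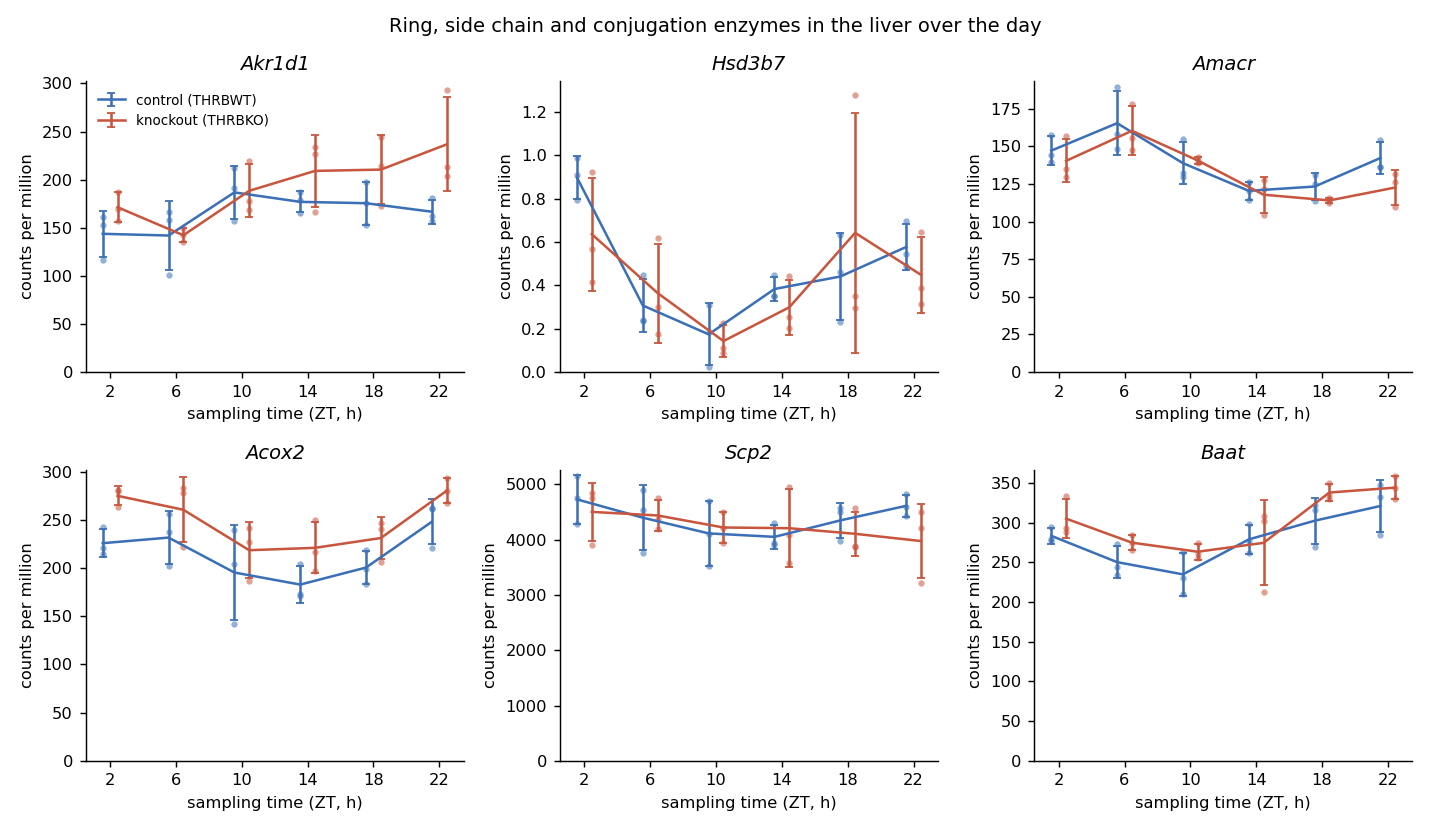
CPM (y axis, from 0 in each panel) of the ring, side chain and conjugation genes against sampling time (x axis, ZT in hours) in THRBWT and THRBKO livers, with each mouse as a point, lines through the means and bars for the SD (n = 3 mice). The Acox2 and Akr1d1 means of THRBKO lie above those of THRBWT at each time, the Amacr and Scp2 means cross, and Hsd3b7 stays near or below 1 CPM.

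At single times no member passed. Of 60 gene and time tests (3 mice against 3), 0 passed an adjusted p of 0.05 by edgeR, and 0 by DESeq2, beside 0.0195% of all gene and time tests called by edgeR. At an unadjusted p of 0.05 by edgeR 6 of the 60 passed, beside 4.89% of all gene and time tests. The mice of both genotypes did not overlap in 8 of the 60, a share near the 9.96% of all tested genes and times. Of these 8, 6 were with THRBKO higher (Cyp7a1 at ZT14, Cyp8b1 and Baat at ZT18, Akr1d1 at ZT22, and Acox2 at ZT2 and ZT22) and 2 were with THRBKO lower (Cyp7b1 at ZT14 and Amacr at ZT22). The largest of them was Cyp7a1 at ZT14, with a log2 fold change of 1.18 (SE 0.451, edgeR adjusted p = 0.928). A test of whether the genotype difference changed with time called 0 members by edgeR and 0 by DESeq2 (0% of all tested genes by edgeR, 484 at an unadjusted p of 0.05), and for Cyp7a1 it gave an unadjusted p of 0.0662 by edgeR.

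The second question was when in the day the genes were highest. With sine and cosine terms of a 24 h period, 6 of 10 members had a rhythm in THRBWT (33.0% of all tested genes) and 6 of 10 in THRBKO (28.9%), by edgeR at an adjusted p of 0.05. Cyp7a1, Cyp8b1, Baat, Amacr and Acox2 were called in both genotypes, Hsd3b7 in THRBWT and Akr1d1 in THRBKO. Cyp27a1, Cyp7b1 and Scp2 were called in neither genotype, nor under any of the 9 alternatives run for each genotype. Without mice a, b or c the count was 3, 4 and 4 in THRBWT and 3, 6 and 3 in THRBKO: Cyp8b1 was called in all of these, Cyp7a1 in all 3 of THRBWT but only without mice b in THRBKO. Acox2 was called in 1 of the 3 leave-outs of each genotype, and with time as a factor in neither genotype. Baat was called in 1 leave-out in THRBWT and 2 in THRBKO, and Amacr in 2 and 3. Hsd3b7 in THRBWT and Akr1d1 in THRBKO were each called in 1.

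Cyp7a1 had a fitted peak at ZT15.0 ± 0.695 h (SE) in THRBWT and ZT15.4 ± 0.981 h in THRBKO, early in the dark phase. Cyp8b1 peaked at ZT22.4 ± 0.773 h and ZT22.5 ± 0.681 h, late in the dark, and Baat close to it at ZT20.7 ± 0.749 h and ZT21.3 ± 0.759 h. The fitted peak of Cyp8b1 therefore lay 7.40 h after that of Cyp7a1 in THRBWT and 7.09 h after it in THRBKO. Acox2 was highest around lights on, at ZT1.07 ± 1.04 h and ZT0.893 ± 1.05 h, and Amacr later in the light, at ZT4.15 ± 0.729 h and ZT5.77 ± 0.629 h.

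On the log2 scale of variance-stabilised values, the amplitude (from the fitted mean to the fitted peak) of Cyp7a1 was 1.23 ± 0.223 (SE) in THRBWT and 0.87 ± 0.223 in THRBKO, and that of Cyp8b1 0.84 ± 0.170 and 0.96 ± 0.170. Baat, Amacr and Acox2 had amplitudes between 0.20 and 0.23 in both genotypes. The median over the 10 members was 0.21 in THRBWT and 0.22 in THRBKO, beside 0.14 and 0.13 over all tested genes. In CPM, the highest time mean of Cyp7a1 was 6.06 times the lowest in THRBWT and 3.93 times in THRBKO. The same ratio was 3.09 and 3.55 for Cyp8b1, and 5.15 and 4.49 for Hsd3b7, whose few counts the variance-stabilised scale draws in.

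**Figure D4:**
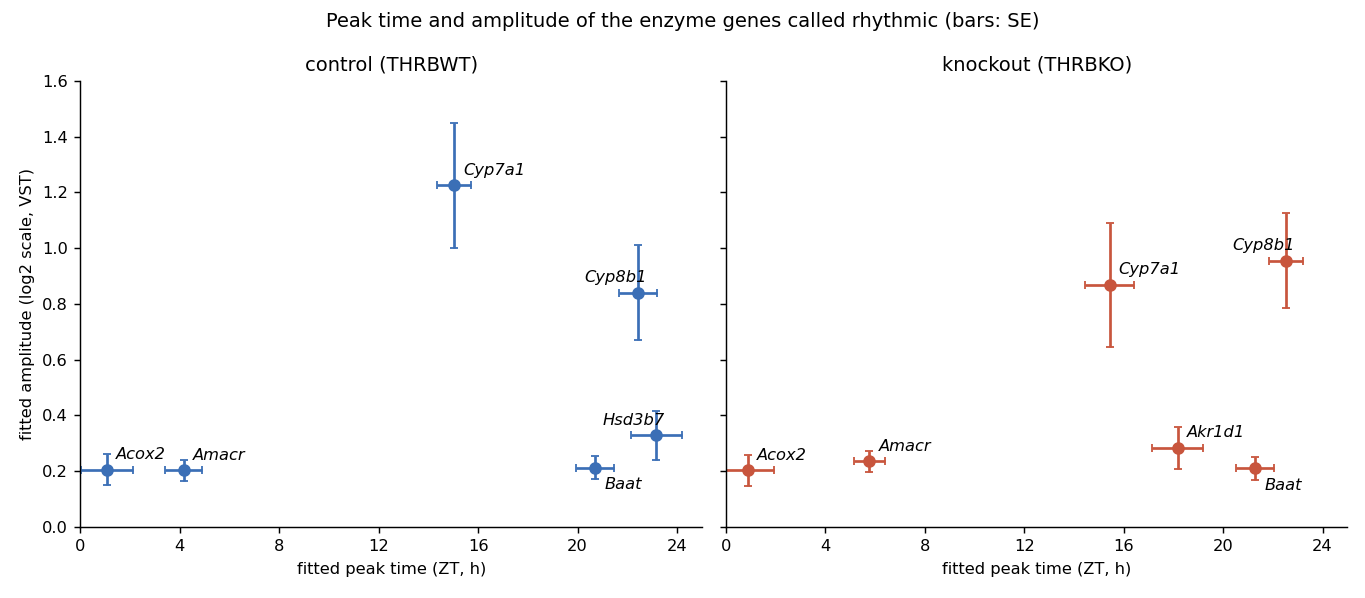
Fitted amplitude (y axis, log2 scale) against fitted peak time (x axis, ZT in hours) of the genes with a called rhythm in THRBWT (left) and THRBKO (right), with bars for the SE, over 18 mice each. Cyp7a1 near ZT15 and Cyp8b1 near ZT22 stand above the others, whose amplitudes on this scale lie between 0.20 and 0.33.

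No change of rhythm passed a test. The joint test of a difference in rhythm called 0 members by edgeR and 0 by DESeq2 (0% of all tested genes by edgeR, 553 at an unadjusted p of 0.05), and 0 members had an unadjusted p under 0.05. In the cosinor comparison of amplitudes 0 of 10 members passed an unadjusted p of 0.05 (1.79% of all tested genes), and of the 5 members rhythmic in both genotypes 0 differed in peak time (4.55% of 3872 genes rhythmic in both). The amplitude difference of Cyp7a1 was -0.36 (THRBKO minus THRBWT, log2 scale, SE 0.315), little more than its own error. The largest shift of peak time among the 5 was that of Amacr, 1.62 h later in THRBKO (SE 0.963).

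The mesor, the fitted daily mean, passed an unadjusted p of 0.05 in 5 of 10 members (11.2% of all tested genes), and in 0 of 10 once adjusted over all tested genes. Without mice a, b or c it passed in 2, 3 and 4 members. These were Cyp7a1 (0.67, SE 0.223), Akr1d1 (0.21, SE 0.0758), Baat (0.11, SE 0.0416) and Acox2 (0.21, SE 0.0558) with a higher fitted mean in THRBKO, and Cyp7b1 (-0.82, SE 0.286) with a lower one. They are the 5 genes with an unadjusted p under 0.05 in the time-adjusted fit and rest on the same mice. The paper had already reported an increased mesor for Cyp7a1, Akr1d1, Baat and Acox2 in these mice. Because the members were chosen with earlier results known, the count of 5 of 10 is not independent of that choice.

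Members also varied together from mouse to mouse within a group. After the mean of each of the 12 groups was subtracted, 45 pairs of members were compared over 36 mice, and 2 pairs passed an adjusted p of 0.05 in a two-sided permutation test within groups. The test took the 36 mice as independent. However, 17 of 18 THRBWT mice were most like the THRBKO mouse of the same time and letter, so its p-values may be too small. Cyp8b1 and Baat had Pearson r = 0.876 and Spearman rho = 0.807 (permutation p = 1e-05 for both, the smallest that 100000 resamples can give, adjusted p = 0.00045), and r = 0.803 without the 2 mice farthest from the median of Cyp8b1. The relation held within THRBWT (r = 0.790) and THRBKO (r = 0.942), and among mice a, b and c (r = 0.716, 0.912 and 0.941). In tests on fewer mice the count of pairs past the threshold fell to 0 within THRBWT alone, and to 1, 0 and 0 without mice a, b or c, while it was 2 within THRBKO alone.

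A single mouse shows this relation at its extreme. The THRBKO mouse c at ZT14 had 66.0 CPM of Cyp8b1, the lowest of all 36, where the other mice of its group had 397 and 325 CPM. Its Baat level was 213 CPM against 302 and 308 CPM, its Cyp27a1 level was the lowest of all 36 mice at 504 CPM, and its Cyp7a1 level the highest at 359 CPM. The last 2 values are those of 1 mouse only. Over all 36 mice Cyp8b1 had r = 0.493 with Cyp27a1 (permutation adjusted p = 0.351) and r = -6.4e-05 with Cyp7a1 (adjusted p = 0.9997).

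Cyp7b1 and Scp2 formed the other pair, with r = 0.792 (permutation p = 8e-05, adjusted p = 0.0018) and rho = 0.758 (permutation p = 0.00014, adjusted p = 0.00315). Without the 2 farthest mice r was 0.726. It was 0.619 within THRBWT and 0.906 within THRBKO, and 0.856, 0.916 and 0.655 among mice a, b and c. The third largest value, r = -0.608 between Cyp7b1 and Akr1d1 (rho = -0.541), had permutation p = 0.00967 and 0.0122 and did not pass after adjustment (adjusted p = 0.145 and 0.184).

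Because Cyp7b1 varied so widely, the members were also set against the summed levels of 12 marker lists in the same way, a comparison chosen after the values were seen. Of 120 relations, 3 passed an adjusted p of 0.05. The permutation again took all mice as independent, so these p-values may also be too small. Cyp7b1 and Scp2 followed the 6 male-biased hepatocyte genes (Mup20, Elovl3, Cyp4a12a, Cyp2d9, Hsd3b5 and Slco1a1), with r = 0.832 and rho = 0.838 for Cyp7b1 and r = 0.826 and rho = 0.783 for Scp2 (permutation p between 1e-05 and 4e-05, adjusted p between 0.0012 and 0.0024). Without the 2 farthest mice r was 0.825 and 0.798.

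Akr1d1 followed the female-biased hepatocyte genes (r = 0.617, permutation p = 0.00027, adjusted p = 0.0108, and rho = 0.627, permutation p = 0.00066, adjusted p = 0.0264), and r was 0.543 without the 2 farthest mice. The relation of Cyp7b1 to the same list was negative (r = -0.613) and just missed the threshold (permutation p = 0.00187, adjusted p = 0.0561). Within genotypes r was 0.901 in THRBWT and 0.794 in THRBKO for Cyp7b1 against the male-biased list, and 0.638 and 0.644 for Akr1d1 against the female-biased list. Among mice a, b and c the same values were 0.897, 0.931 and 0.560 for Cyp7b1, 0.854, 0.910 and 0.782 for Scp2, and 0.736, 0.701 and 0.375 for Akr1d1.

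**Figure D5:**
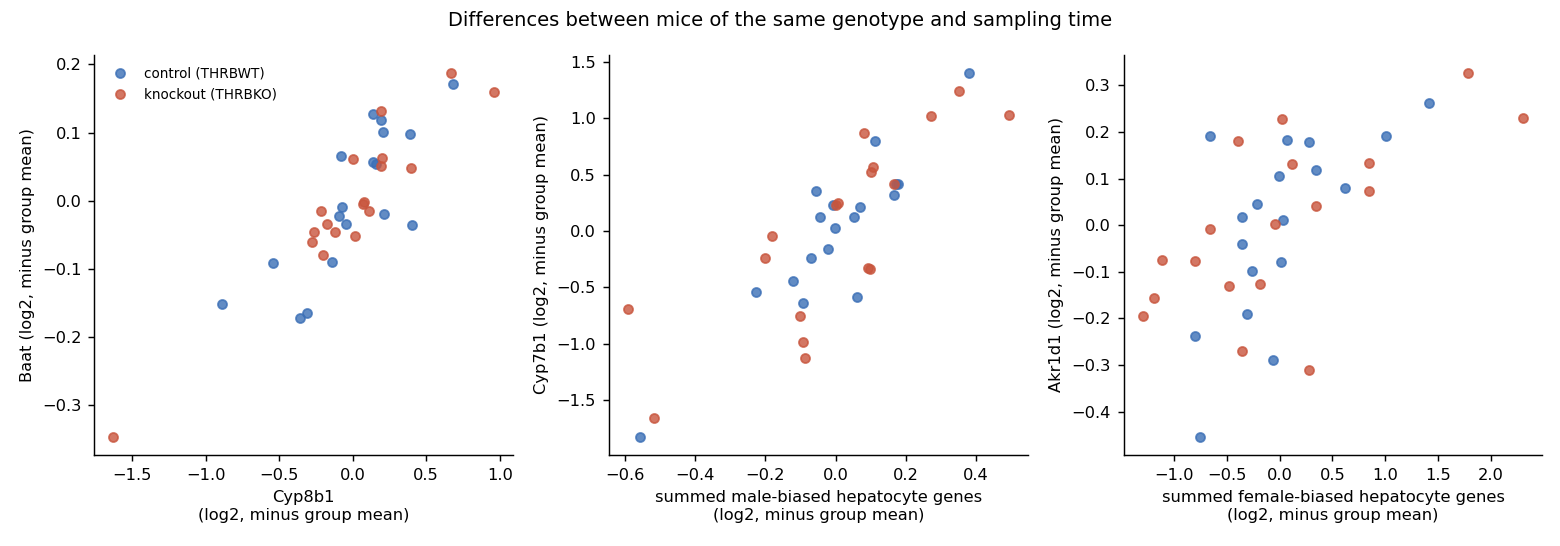
Differences from mouse to mouse within groups, each point 1 of 36 mice with the mean of its genotype and time subtracted (both axes on a log2 scale): Baat against Cyp8b1, Cyp7b1 against the summed male-biased genes, and Akr1d1 against the summed female-biased genes. The points rise together in each panel, with Pearson r of 0.876, 0.832 and 0.617.

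In level, the summed male-biased genes lay between 2141 and 4374 CPM in THRBWT and between 1674 and 4133 CPM in THRBKO, with 0 of 6 genes called by edgeR or DESeq2 and 1 at an unadjusted p of 0.05. The summed female-biased genes lay between 3.25 and 22.9 CPM in THRBWT and between 5.29 and 116 CPM in THRBKO. Of the 7 female-biased genes 5 were tested and 4 had an unadjusted p under 0.05 by edgeR, beside 2169 of all 17994 tested genes. All 4 had higher means in THRBKO, and the median log2 fold change of the 5 was 1.04. The called gene was 1 of these, Cyp2b9, a cytochrome of female liver, with 1.45 ± 2.66 CPM in THRBWT and 14.2 ± 26.9 CPM in THRBKO (SD, n = 18, log2 fold change 3.18, SE 0.676, edgeR adjusted p = 0.00967). The part of these lists in the values of Cyp7b1, Scp2 and Akr1d1 between genotypes was not tested.

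Of 15 other genes of bile acid synthesis, 14 were tested. Of these, 1 was called higher in THRBKO and 0 lower, beside 0.950% of all tested genes called. Their median log2 fold change was 0.07. The called gene was Abcd3, the transporter that brings bile acid precursors into the peroxisome, where Acox2 acts. It was at 505 ± 57.5 CPM in THRBWT and 581 ± 54.5 CPM in THRBKO (SD, n = 18), with a log2 fold change of 0.20 (SE 0.0491, edgeR adjusted p = 0.0324). Slc27a5, which activates bile acids for conjugation by Baat, had a log2 fold change of 0.08 (SE 0.0411, edgeR adjusted p = 0.45), and Cyp2c70, which makes muricholic acid, one of 0.07 (SE 0.101, edgeR adjusted p = 0.842). Por, which donates electrons to Cyp7a1, Cyp8b1 and Cyp7b1, was at 381 ± 246 CPM in THRBWT and 424 ± 251 CPM in THRBKO (SD, n = 18, edgeR adjusted p = 0.252), and its fitted peak lay at ZT12.3 and ZT12.7. Of the 14 genes tested in this list, 7 were called rhythmic in each genotype, beside 33.0% of all tested genes in THRBWT and 28.9% in THRBKO.

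Among 12 regulators of bile acid synthesis, 0 were called between genotypes by edgeR and 0 by DESeq2. An unadjusted p under 0.05 by edgeR was found for 3, beside 2169 of all 17994 tested genes. The smallest unadjusted p belonged to Nr0b2, the small heterodimer partner that represses Cyp7a1, with 52.8 ± 24.3 CPM in THRBWT and 37.3 ± 19.8 CPM in THRBKO (SD, n = 18, log2 fold change -0.46, SE 0.163, unadjusted p = 0.00774, edgeR adjusted p = 0.203). Nr1h4, the bile acid receptor, had a log2 fold change of 0.08 (SE 0.0487, edgeR adjusted p = 0.517). Fgfr4 and Klb, the receptor pair for the gut signal FGF15, had 0.05 (SE 0.0419, edgeR adjusted p = 0.661) and 0.19 (SE 0.0857, edgeR adjusted p = 0.349).

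Most regulators were called rhythmic, 10 of 12 in THRBWT and 8 of 12 in THRBKO, beside 33.0% and 28.9% of all tested genes. Dbp, a clock output factor known to act on Cyp7a1, had a fitted peak at ZT9.71 in THRBWT and ZT10.2 in THRBKO, and Nr1d1, a clock repressor, at ZT7.33 and ZT7.73. Nr0b2 peaked at ZT3.43 and ZT2.82, where Cyp7a1 was near its trough.

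Over all 12640 other genes with a mean of at least 1 CPM, the patterns most like those of the members with the widest daily ranges were found by Pearson r over 36 libraries, as a description with no test. For Cyp7a1 they were Zbtb7a (0.825), Dst (0.821) and Fastkd1 (0.819). For Cyp8b1 they were Ptk6 (0.888), Psen2 (0.887) and Tmie (0.886), while for Baat the closest gene was Cyp8b1 itself (0.886). All points share the 36 libraries and the daily cycle.

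Upstream sequence could be read for 6 of the 10 genes in RefSeq (GRCm38.p6), and the 250 bases before the start site are shown for 3 of them: Cyp8b1 as the member with the strongest rhythm among those 6, Acox2 as the called one, and Akr1d1 because it held the most matches to a nuclear receptor half-site. Both strands were searched for 5 motifs, and capitals mark the matches, a match on the other strand appearing as its reverse complement. The nuclear receptor half-site AGGTCA was held by 14.02% of all 32851 windows of this length, and CAAGGTCA, a monomer site that contains it, by 1.333%. The E-box CACGTG, to which the clock activators bind, was in 6.021% of the windows. The D-box TTATGTAA, to which Dbp binds, was in 0.8188% of them. The CCAAT box was in 33.85%.
Akr1d1, chr6:37529923-37530172, plus strand: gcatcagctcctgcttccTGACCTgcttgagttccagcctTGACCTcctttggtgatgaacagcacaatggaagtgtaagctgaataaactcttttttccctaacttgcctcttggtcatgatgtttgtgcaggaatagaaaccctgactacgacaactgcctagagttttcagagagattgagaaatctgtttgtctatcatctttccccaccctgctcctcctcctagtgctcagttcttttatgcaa
Cyp8b1, chr9:121916306-121916555, minus strand: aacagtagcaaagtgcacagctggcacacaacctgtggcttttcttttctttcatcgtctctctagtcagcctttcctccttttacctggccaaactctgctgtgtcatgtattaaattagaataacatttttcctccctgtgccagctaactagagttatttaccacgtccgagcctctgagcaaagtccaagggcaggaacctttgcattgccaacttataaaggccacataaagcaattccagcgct
Acox2, chr14:8258840-8259089, minus strand: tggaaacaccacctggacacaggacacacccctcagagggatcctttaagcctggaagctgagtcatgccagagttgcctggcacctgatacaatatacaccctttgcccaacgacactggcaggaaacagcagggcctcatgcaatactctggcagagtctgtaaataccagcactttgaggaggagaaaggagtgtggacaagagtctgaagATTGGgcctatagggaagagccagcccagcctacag

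The Akr1d1 window held the half-site at 2 places on the opposite strand, 232 to 227 and 210 to 205 bases before the start. The Cyp8b1 window held none of the 5 motifs. The Acox2 window shown, the inner of 2 RefSeq start sites, held the CCAAT box 36 to 32 bases before the start on the opposite strand, and the outer window held no motif. Of the others, Scp2 held 1 half-site, Cyp27a1 held the CCAAT box at 2 places and Hsd3b7 held none of the 5 motifs. The Scp2 window (chr4:108118548-108118797) and both Acox2 windows lie inside the gene spans given above. They are thus upstream of a RefSeq start site but not of the whole counted gene. Letters of the E-box or D-box were not in any of these windows, which says nothing of sites further away.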

How the data were processed

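Liver RNA of 36 mice was sequenced as polyadenylated, non-stranded, paired-end libraries. Per the labels, the authors aligned reads with HISAT2 to GRCm38 (mm10) and counted them per gene with featureCounts, and they deposited these raw counts in 1 table with gene positions and lengths; versions, annotation release and counting settings are not given in the sources used here. Groups (genotype and sampling time) were read from the sample titles, and all columns were matched to samples. Read depth differed by less than 1.5 times between the shallowest and deepest library, and intervals cover the spread between mice.

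Genes with at least 100 counts in total were tested with the quasi-likelihood test of edgeR 4.0.16 (TMM scaling, Benjamini-Hochberg adjustment over all 17994 tested genes, threshold 0.05) in R 4.3.3: genotype adjusted for time as a factor, genotype by time, each time alone, and 24 h sine and cosine terms per genotype and between genotypes. Cosinor parameters were fitted by least squares to variance-stabilised values from DESeq2 1.42.0 and compared by Wald tests with 30 residual degrees of freedom. Correlations used log2 CPM (prior count 2) minus group means and 100000 permutations of mice within groups. Alternatives were DESeq2, its size factors, no filter, filterByExpr, robust dispersion, pooled times, time as a factor, log2 CPM cosinor, a replicate block and leaving out mice a, b or c of every group.

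The members, the other gene lists and the marker lists were chosen with earlier results of these data known. All 10 members are named. Other genes are named if called in the time-adjusted fit, if they had the smallest unadjusted p of their list, if they are a set cofactor or regulator of a member, or, for the members with the widest daily ranges, if they were among the 3 genes of at least 1 CPM with the highest Pearson r. The Baat and Scp2 neighbours, the upstream sequences shown and the Hsd3b7 partners were picked after values were seen.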

Additional observations from a re-analysis of the deposited data

How the results depend on the processing

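Acox2 alone was called in the time-adjusted genotype test. Under DESeq2 and without the filter on low counts 2 members were called (Cyp7a1 and Acox2), with sampling times pooled 0, and without mice a, b or c 0 each time. With a replicate block of mice sharing sampling time and letter, 3 were called (Cyp7b1, Akr1d1 and Acox2, edgeR adjusted p = 0.0135, 0.0411 and 0.0016), and 387 genes of all in place of 171. The labels do not say that a letter marks a litter or batch. Same-letter deviations from group means correlated above 0.1 in 16 of 18 pairs (lowest -0.0611, highest 0.395), and 17 of 18 mice correlated best with their own letter. In the labels the animal numbers of 15 of the 18 pairs differ by at most 10, which does not say that they share a litter. Without mice a, b or c, rhythm calls ranged from 3 to 4 in THRBWT and 3 to 6 in THRBKO, mesor differences from 2 to 4, amplitude differences from 0 to 1 (Cyp7a1 without mice c) and member pairs from 0 to 1. After adjustment 0 mesor differences passed, and within THRBWT alone 0 pairs. The log2 fold change of Cyp27a1 lay between -0.063 and 0.010 and that of Hsd3b7 between -0.28 and 0.064 in these leave-outs, both changing sign. All other counts of members stayed within 1.5 times under the alternatives, and the other 8 members kept the sign of their fold change. With 24 mice in place of 36 fewer genes pass at the same effect; no other cause was tested. Hsd3b7, with at most 40 counts in a library, had a 95% interval of the fold from 0.670 to 1.26, so smaller differences were not detectable at this depth.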
